A study of Mus musculus with 12 samples.

Results

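The 10 genes described here are regulators of dendritic cell apoptosis: Bcl2, Bcl2l1, Mcl1, Bcl2l11, Bcl2a1b, Bcl2a1d, Bax, Bak1, Cflar and Bbc3. They were chosen by name, with earlier results of these data known, and are 10 of the 41709 genes counted. RNA-seq was performed on MHCII+ cells that were isolated with magnetic beads from bone marrow cultures kept for 10 days with GM-CSF, which gives bone marrow-derived dendritic cells (BMDCs). Both genotypes are homozygous for a floxed Itgb2 gene, which encodes CD18, the chain shared by all β2 integrins. CD18fl/fl mice carry no Cre, whereas in CD18CD11c cKO mice (CD18ΔCD11c in the labels) Cre under the CD11c promoter removes exon 3 of Itgb2, so recombination can take place only in cells that use this promoter. BMDCs of each genotype were left untreated or received 100 ng/mL LPS, for 24 h by the labels and overnight by the study's methods. The 4 groups hold 3 libraries each, numbered 1, 2 and 3, 12 in all. The labels do not say whether the 3 libraries of a group came from separate mice or cultures, so every p-value measures only the spread between these libraries, which may be technical.

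Proteins of the BCL2 family decide whether the outer mitochondrial membrane stays intact. The pro-survival members BCL2, BCL-XL (Bcl2l1), MCL1 and A1 (the Bcl2a1 genes) hold back the pore formers BAX and BAK (Bak1), and the BH3-only proteins BIM (Bcl2l11) and PUMA (Bbc3) bind the pro-survival members and so release the pore formers. c-FLIP (Cflar) acts elsewhere, at death receptors, where it keeps caspase-8 from being activated. A1 is known as an NF-κB target of hematopoietic cells, and dendritic cells are known to depend on the balance of these proteins for their short lifespan after activation.

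A1 is encoded in the mouse by several near-identical genes on chromosome 9, and the reads of Bcl2a1b and Bcl2a1d therefore have to be read together with those of Bcl2a1a, a further copy that is not among the 10 genes. Each of the 3 genes has a coding sequence of 516 bases in 2 exons, and the 3 sequences differ at 12 positions. Bcl2a1b and Bcl2a1d differ at 6 of the 516 bases (98.8% identity), Bcl2a1a and Bcl2a1d at 7 and Bcl2a1a and Bcl2a1b at 11, and the longest stretch common to all 3 is 217 bases. The first 120 coding bases, all in exon sequence, are shown because they hold 7 of the 12 differing positions, which are in capitals (GRCm39, written in the direction of the gene, chr9:88839104-88839223 on the + strand for Bcl2a1a, chr9:89081413-89081532 on the + strand for Bcl2a1b and chr9:88613653-88613772 on the - strand for Bcl2a1d).
Bcl2a1a: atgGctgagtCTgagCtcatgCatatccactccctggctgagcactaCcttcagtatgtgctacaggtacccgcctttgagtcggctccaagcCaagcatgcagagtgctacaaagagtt
Bcl2a1b: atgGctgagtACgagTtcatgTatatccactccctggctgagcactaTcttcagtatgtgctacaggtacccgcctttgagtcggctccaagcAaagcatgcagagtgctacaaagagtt
Bcl2a1d: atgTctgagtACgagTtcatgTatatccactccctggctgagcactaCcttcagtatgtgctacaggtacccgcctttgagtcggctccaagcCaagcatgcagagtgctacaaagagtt

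With reads of 59 bases, most of each transcript cannot be assigned to 1 copy. Of all windows of 59 bases along the annotated transcript, 36.1% occur in no other copy for Bcl2a1a, 48.0% for Bcl2a1b and 25.2% for Bcl2a1d. The short single-exon copy Bcl2a1c is more distinct (92.2%). Per gene, the deposited tables give total gene reads, among them those that map to more than 1 place, and separately the unique gene reads. Unique reads made up 63.9% to 69.1% of the total for Bcl2a1b, 71.7% to 80.4% for Bcl2a1d and 74.8% to 81.8% for Bcl2a1a over the 12 libraries, with Wilson 95% intervals that reach at most 0.758, 1.01 and 1.22 percentage points to either side and cover counting error only. These shares exceed the shares of distinct windows, and how the counting program placed reads within the copies was not tested. Of the other members, Bax had 94.4% to 97.3% unique reads and Bak1 98.7% to 99.9%.

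The libraries held 29689149 to 34037178 total gene reads, of which 95.1% to 96.2% were unique. Replicate 3 stood apart: it gave the highest of the 3 values in all 4 groups for 17.3% of 13752 genes and the lowest in all 4 for 15.3%. Itgb2, the targeted gene, measured 382, 420 and 383 CPM (total gene reads scaled to library size with TMM factors) in untreated CD18fl/fl and 120, 162 and 190 CPM in untreated CD18CD11c cKO BMDCs, and 168, 171 and 268 against 114, 89.0 and 118 CPM with LPS, so the genotypes did not overlap in either state. Of all genes, 13.5% were lower in CD18CD11c cKO without overlap in the untreated state and 8.62% with LPS. The log2 fold change of Itgb2 was -1.26 ± 0.23 (SE) without LPS (edgeR adjusted p = 0.0887) and -0.93 ± 0.29 with LPS (edgeR adjusted p = 0.428). With the replicate number as an added term in the fit, the edgeR adjusted p was 0.00392 and 0.0201. Residual Itgb2 reads are counted over the whole gene and not over exon 3 alone. All 15 dendritic cell markers averaged over 1 CPM in every group. Markers of other cells varied between the groups: summed neutrophil markers ranged from 179 to 1791 CPM in untreated CD18fl/fl, 111 to 447 in untreated CD18CD11c cKO, 150 to 369 in CD18fl/fl with LPS and 116 to 164 in CD18CD11c cKO with LPS, and summed macrophage markers from 1942 to 4734, 2385 to 4041, 1172 to 1802 and 585 to 1050 CPM in the same order. Their part in the values given here was not tested, and in bulk samples fewer cells of a type and less RNA per cell cannot be told apart.

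Of the 10 genes, Bcl2a1b, Bcl2a1d and Cflar passed the main test in at least 1 comparison. Bcl2a1b and Bcl2a1d measured higher in CD18CD11c cKO than in CD18fl/fl BMDCs in both states and higher with LPS in both genotypes, with no overlap between the groups in any of the 4 comparisons. Cflar rose with LPS in both genotypes. The test used for these comparisons, edgeR's quasi-likelihood test with p-values adjusted after Benjamini-Hochberg across every gene tested (threshold 0.05), called 0 of the 10 between the genotypes without LPS and 0 with LPS (0% and 0% of all genes in either direction), 3 higher with LPS in CD18fl/fl (2.06% of all genes called higher, 1.83% lower) and 2 higher with LPS in CD18CD11c cKO BMDCs (2.23% higher, 1.76% lower). At an unadjusted p under 0.05, 3 of the 10 passed between the untreated genotypes (16.8% of all genes) and 2 of the 10 with LPS (9.74%), and DESeq2 called Bcl2a1b and Bcl2a1d higher in both states (5.55% of all genes higher and 1.18% lower without LPS, 2.28% and 0.233% with LPS).

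Libraries with the same replicate number deviated together across genes, most of all those numbered 3, and a fit with the replicate number as an added term (the replicate block) changed the calls. With the block, 3 of the 10 were higher and 1 lower in untreated CD18CD11c cKO BMDCs (12.1% and 8.16% of all genes), 2 higher and 0 lower with LPS (6.98% and 3.16%), 4 higher and 1 lower with LPS in CD18fl/fl (6.33% and 6.43%) and 4 higher and 0 lower with LPS in CD18CD11c cKO (10.2% and 9.93%). Scaling by library size in place of TMM shifted the split of calls with the block, from 1555 genes higher and 1051 lower to 701 and 3882 between the untreated genotypes, from 869 and 393 to 590 and 2052 between the genotypes with LPS, from 807 and 820 to 476 and 1145 with LPS in CD18fl/fl and from 1300 and 1260 to 884 and 1864 with LPS in CD18CD11c cKO. The A1 copies stayed higher in CD18CD11c cKO in both states under this scaling, and the calls became 2 higher and 3 lower of the 10 without LPS and 2 higher and 1 lower with LPS. The median log2 fold change of the 10 genes without the block was 0.03 between the untreated genotypes (-0.05 over all genes tested), 0.36 between the genotypes with LPS (-0.11), 0.17 with LPS in CD18fl/fl (-0.02) and 0.62 with LPS in CD18CD11c cKO BMDCs (-0.01). The calls without the block depended on single libraries, and so did those of all genes. The 3 calls in CD18fl/fl (3.89% of all genes) fell to 0 without untreated replicate 1, untreated replicate 2, LPS replicate 1 or LPS replicate 2 (0% of all genes each time). They fell to 1 without untreated replicate 3 (3.80% of all genes) and rose to 4 without LPS replicate 3 (24.7%). The 2 calls in CD18CD11c cKO (3.99% of all genes) fell to 0 without replicate 1 or 2 of either state (0% to 0.196% of all genes). They fell to 1 without untreated replicate 3 (2.69% of all genes), and without LPS replicate 3 they were Mcl1 and Cflar (7.80%). Bcl2a1b thus lost its call there with each of the 6 libraries left out.

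**Figure D1:**
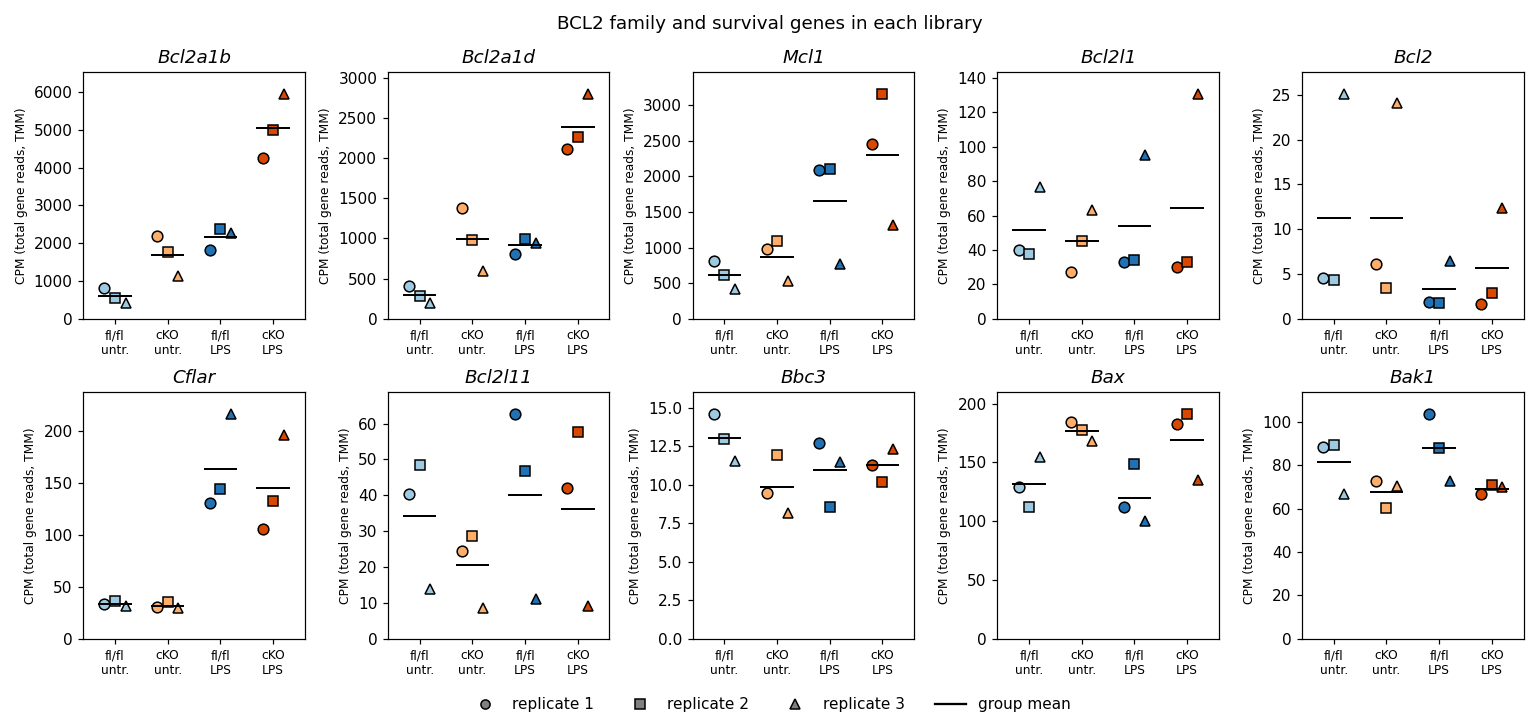
Level of each of the 10 genes in each of the 12 libraries, in CPM (TMM-scaled total gene reads, linear axis from 0); symbols mark the replicate number and bars the mean of 3 libraries. Bcl2a1b and Bcl2a1d are lowest in untreated CD18fl/fl and highest in CD18CD11c cKO with LPS, while replicate 3 is the highest library of every group for Bcl2 and Bcl2l1 and the lowest for Mcl1 and Bcl2l11.

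Levels per length were compared as RPKM, deposited values that are scaled for exon length and library size but carry no TMM factor. In untreated CD18fl/fl BMDCs, Bcl2a1b was the highest of the 10 at a mean of 882 ± 287 RPKM (SD, n = 3), followed by Bcl2a1d at 419 ± 143 and Mcl1 at 216 ± 66.6 RPKM. Bax averaged 121 ± 20.2 and Bak1 41.4 ± 6.31 RPKM, so both pore formers lay well below the A1 copies in transcript level. Bcl2l1 averaged 13.7 ± 5.91, Bbc3 7.45 ± 0.668, Bcl2l11 5.87 ± 3.24, Cflar 4.73 ± 0.559 and Bcl2 1.49 ± 1.59 RPKM. In this order, Bcl2a1b and Bcl2a1d did not overlap over their 3 libraries, and among neighbours only Bbc3 and Bcl2l11, and Bcl2l11 and Cflar, had overlapping ranges. In CD18CD11c cKO BMDCs with LPS the top of the order was the same, with Bcl2a1b at 5131 ± 1423, Bcl2a1d at 2299 ± 613 and Mcl1 at 534 ± 167 RPKM, whereas Cflar, at 13.2 ± 6.63 RPKM, now stood above Bcl2l1 (12.1 ± 11.9), a difference smaller than the spread of either gene.

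**Figure D2:**
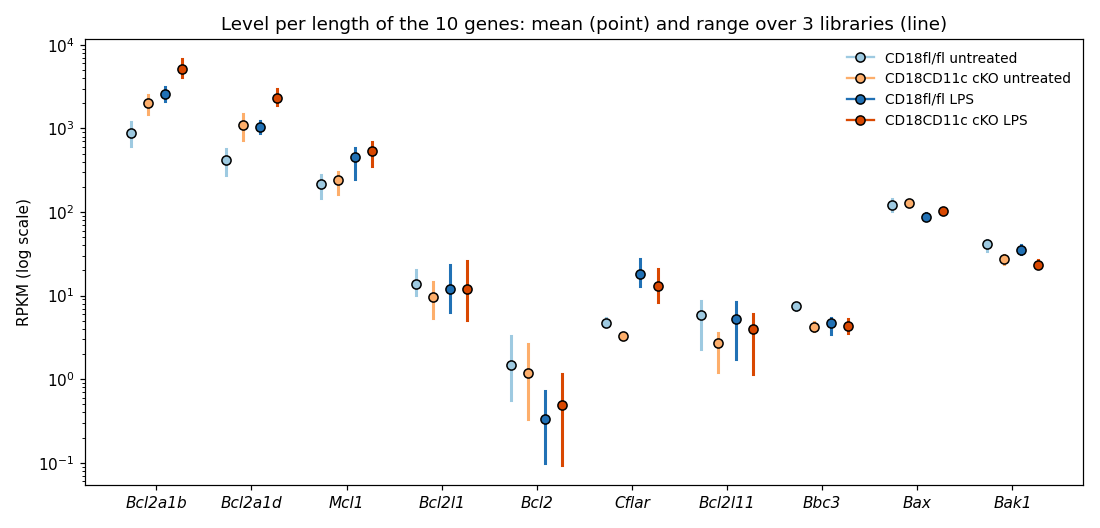
Level per length of the 10 genes in the 4 groups, as deposited RPKM on a log axis; points are means and lines the range over 3 libraries. The A1 copies and Mcl1 lie above 100 RPKM in every group, and Bcl2 lies below 4 RPKM in every library.

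Bcl2a1b (ENSMUSG00000089929, chr9:89081262-89089880 on the + strand, exon length 817 bases) measured 819, 544 and 414 CPM in the untreated CD18fl/fl libraries and 2189.6, 1755 and 1142 CPM in the untreated CD18CD11c cKO libraries. With LPS it measured 1827, 2375 and 2282 CPM in CD18fl/fl and 4244, 5000.1 and 5944 CPM in CD18CD11c cKO BMDCs. The lowest library of each higher group thus lay above the highest library of the group it was compared with, and 2 of the 3 untreated CD18CD11c cKO libraries, those numbered 2 and 3, stayed below all 3 CD18fl/fl libraries with LPS. Between libraries of the same number, CD18CD11c cKO exceeded CD18fl/fl by 2.67-fold to 3.23-fold without LPS and by 2.11-fold to 2.61-fold with LPS. The log2 fold change between the untreated genotypes was 1.58 ± 0.36 (SE, edgeR adjusted p = 0.132), and 1.59 ± 0.15 with the replicate block (edgeR adjusted p = 0.00298). Between the genotypes with LPS it was 1.22 ± 0.28 (edgeR adjusted p = 0.325), and 1.21 ± 0.13 with the replicate block (edgeR adjusted p = 0.00641). The sizes hardly moved with the block, whose effect was on the error.

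LPS raised Bcl2a1b in CD18fl/fl BMDCs by a log2 fold change of 1.87 ± 0.34 (edgeR adjusted p = 0.036, and 0.0164 with the replicate block) and in CD18CD11c cKO BMDCs by 1.54 ± 0.32 (edgeR adjusted p = 0.0461, and 0.0131 with the replicate block). Same-numbered libraries differed by 2.23-fold to 5.51-fold in CD18fl/fl and by 1.94-fold to 5.20-fold in CD18CD11c cKO, with replicate 3 giving the largest ratio in both.

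Bcl2a1d (ENSMUSG00000099974, chr9:88605338-88613967 on the - strand, exon length 863 bases) ran in parallel. It measured 410.4, 285 and 197 CPM in untreated CD18fl/fl and 1386, 986 and 593 CPM in untreated CD18CD11c cKO libraries, and 806, 988 and 947 against 2109, 2271 and 2797 CPM with LPS. The genotypes did not overlap in either state, and same-numbered ratios were 3.01 to 3.46 without and 2.30 to 2.95 with LPS. The genotype log2 fold change was 1.79 ± 0.41 without LPS (edgeR adjusted p = 0.131, and 0.00298 with the replicate block) and 1.38 ± 0.26 with LPS (edgeR adjusted p = 0.286, and 0.00641 with the block). Without replicate 1 of both groups, the block left 0 of the 10 genes called between the genotypes with LPS, Bcl2a1b and Bcl2a1d included (0.0234% of all genes). LPS raised Bcl2a1d by 1.62 ± 0.33 in CD18fl/fl (edgeR adjusted p = 0.0482, and 0.0229 with the block), a call that was lost with unique gene reads and no block (1.61, edgeR adjusted p = 0.0509). In CD18CD11c cKO the difference was 1.24 ± 0.35 and passed with the block only (edgeR adjusted p = 0.0979, and 0.0339 with the block), and this call was lost when the block was joined to the length offset or to library size scaling. Without the block, both settings also ended the calls of Bcl2a1d in CD18fl/fl and Bcl2a1b in CD18CD11c cKO, and library size scaling that of Bcl2a1b in CD18fl/fl. The LPS calls of Bcl2a1d made with the block were lost in both genotypes without replicate 2 of both groups.

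Of the copies outside the 10 genes, Bcl2a1a measured 291, 186 and 128 CPM in untreated CD18fl/fl, 847, 636 and 394 in untreated CD18CD11c cKO, 552, 657 and 376 in CD18fl/fl with LPS and 1232, 1473 and 1242 CPM in CD18CD11c cKO with LPS, with genotype log2 fold changes of 1.69 ± 0.41 without LPS (edgeR adjusted p = 0.141, and 0.00298 with the block) and 1.31 ± 0.29 with LPS (edgeR adjusted p = 0.303, and 0.00709 with the block). With LPS, Bcl2a1a differed by 1.39 ± 0.39 in CD18fl/fl (edgeR adjusted p = 0.0947, and 0.0222 with the block) and 1.03 ± 0.31 in CD18CD11c cKO (edgeR adjusted p = 0.117, and 0.0258 with the block). Bcl2a1c was near the limit of detection, at 0.276 to 1.00 CPM (11 to 36 reads) in untreated CD18fl/fl libraries, and reached 3.18 to 4.37 CPM (79 to 127 reads) in CD18CD11c cKO libraries with LPS. Its reads were nearly all unique, and the genotype difference with LPS was 1.80 ± 0.48 on the log2 scale (edgeR adjusted p = 0.369, and 0.0464 with the block). Without LPS the genotype difference of Bcl2a1c was 1.43 ± 0.73 (edgeR adjusted p = 0.368, and 0.151 with the block), and with LPS in CD18fl/fl it was lower in 1 of 3 same-numbered pairs (ratios 0.873 to 4.58), with no call in either comparison.

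When the reads of Bcl2a1a, Bcl2a1b and Bcl2a1d were added up, which removes the question of how shared reads were divided, the sum was 1521, 1016 and 738 CPM in untreated CD18fl/fl, 4422, 3377 and 2129.6 CPM in untreated CD18CD11c cKO, 3184, 4020.0 and 3604 CPM in CD18fl/fl with LPS and 7585, 8744 and 9983 CPM in CD18CD11c cKO with LPS. Each CD18CD11c cKO library with LPS lay above all 9 libraries of the other groups. Neutrophils also express A1, and the part of these cells, whose summed markers ranged from 179 to 1791 CPM in untreated CD18fl/fl and from 116 to 164 CPM in CD18CD11c cKO with LPS, was not tested. The log2 fold change of the sum between the genotypes was 1.66 without LPS (edgeR adjusted p = 0.136, and 0.0031 with the block) and 1.27 with LPS (edgeR adjusted p = 0.29, and 0.00649 with the block). With LPS it rose by 1.72 in CD18fl/fl (edgeR adjusted p = 0.0443, and 0.0176 with the block), and in CD18CD11c cKO it differed by 1.37 (edgeR adjusted p = 0.0652, and 0.0187 with the block). From unique reads alone the 4 values were 1.68, 1.27, 1.72 and 1.34. Leaving out 1 library at a time, the untreated genotype difference of the sum ran from 1.41 to 1.99, and the call with LPS in CD18fl/fl was lost without any 1 of untreated replicates 1, 2 and 3 and LPS replicates 1 and 2 (log2 fold change 1.503 to 2.04, highest edgeR adjusted p = 0.211).

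A correction for exon length lowered the genotype differences of the A1 copies. When a smooth trend of counts with exon length was removed from each library, the untreated genotype log2 fold change dropped to 0.88 for Bcl2a1b and 1.12 for Bcl2a1d, and with LPS to 0.67 and 0.86. With this length offset and the block together, both copies were still called in both states (edgeR adjusted p = 0.0121 and 0.0083 without LPS, 0.0222 and 0.0117 with LPS). The A1 transcripts are the shortest of the 10 genes, and whether the trend with length is technical was not tested.

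The division of reads among the copies shifted slightly. Bcl2a1b took 54.5% ± 1.35 (SD, n = 3) of the reads of the 3 copies in untreated CD18fl/fl, 51.7% ± 2.07 in untreated CD18CD11c cKO, 59.9% ± 3.06 in CD18fl/fl with LPS and 57.6% ± 1.82 in CD18CD11c cKO with LPS, and the Wilson 95% interval of a single library reached at most 0.588 percentage points to either side. The share was 5.43 percentage points higher with LPS in CD18fl/fl and 5.86 points higher in CD18CD11c cKO, with no overlap in either, which gave the smallest p that 3 against 3 libraries allow (exact permutation test, two-sided, p = 0.1 for both, 0.267 after adjustment over 12 shares and comparisons). Between the genotypes the difference, CD18CD11c cKO minus CD18fl/fl, was -2.78 points without LPS (exact permutation p = 0.2) and -2.35 points with LPS (exact permutation p = 0.4). The share was lower in CD18CD11c cKO in 3 of 3 same-numbered pairs in each state, by 1.60 to 4.33 and 1.41 to 3.76 points, and an exact test over the 3 pairs gave the smallest p it allows (exact permutation over pairs, two-sided, p = 0.25 for both). Unique reads gave differences of 5.98 and 6.02 points with LPS and of -2.32 and -2.28 points between the genotypes. Reads across exon junctions gave 5.57 points with LPS in CD18fl/fl (exact permutation p = 0.2) and 5.79 points in CD18CD11c cKO (exact permutation p = 0.1). In these reads the CD18fl/fl groups overlapped, with untreated replicate 3 at 58.0% and LPS replicate 1 at 57.9%. With the block, all 3 copies were called in each of the 4 comparisons, and Bcl2a1b was the copy with the most reads in every library, at 49.5% to 63.3% of the total.

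**Figure D3:**
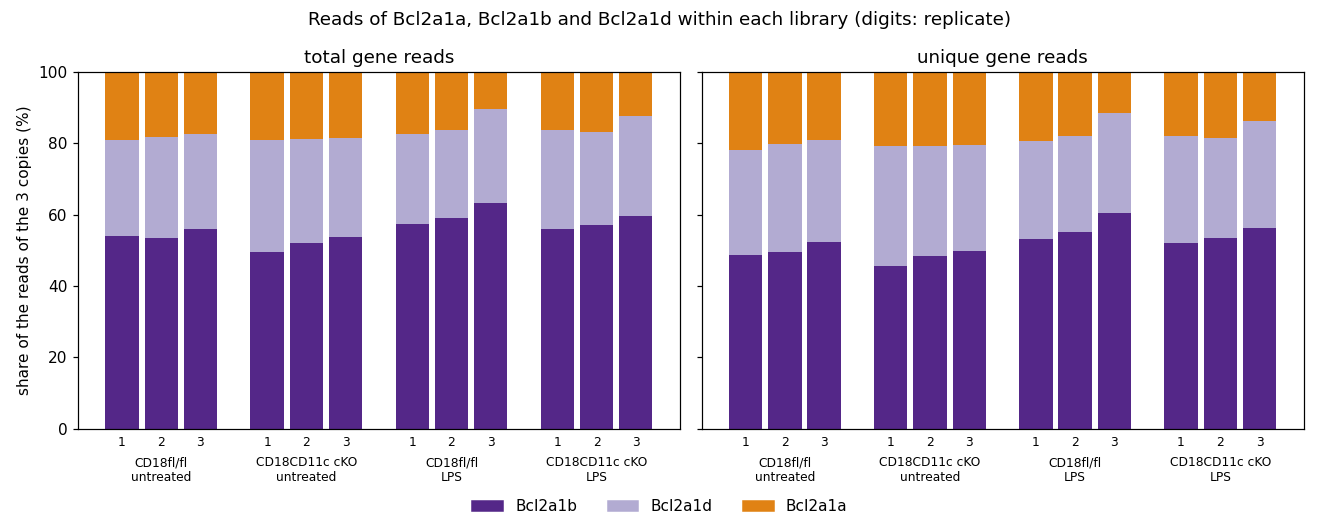
Share of Bcl2a1b, Bcl2a1d and Bcl2a1a in the reads of the 3 copies in each library, from total gene reads (left) and unique gene reads (right), in percent. Bcl2a1b takes 49.5% to 63.3% of the total reads, and its share is higher in the 3 LPS libraries of each genotype than in the 3 untreated ones.

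Mcl1 (ENSMUSG00000038612, chr3:95566099-95570487 on the + strand), which encodes a short-lived pro-survival protein, measured 809, 612 and 414 CPM in untreated CD18fl/fl and 983, 1090.0 and 531 CPM in untreated CD18CD11c cKO libraries. With LPS it reached 2089, 2108 and 768 CPM in CD18fl/fl and 2451, 3156 and 1315 CPM in CD18CD11c cKO. Replicate 3 was the lowest library of every group, at 0.366 to 0.582 of the mean of replicates 1 and 2, and this spread made the groups overlap except with LPS in CD18CD11c cKO. Within same-numbered libraries LPS went with 1.86-fold to 3.45-fold higher values in CD18fl/fl and 2.48-fold to 2.90-fold in CD18CD11c cKO. The LPS log2 fold change of Mcl1 was 1.44 ± 0.46 in CD18fl/fl (edgeR adjusted p = 0.128, and 0.0222 with the replicate block) and 1.35 ± 0.40 in CD18CD11c cKO (edgeR adjusted p = 0.112, and 0.00362 with the block). Between the genotypes it was 0.57 ± 0.37 without LPS (edgeR adjusted p = 0.483, and 0.0464 with the block) and 0.47 ± 0.48 with LPS (edgeR adjusted p = 0.81, and 0.0721 with the block), with same-numbered ratios of 1.22 to 1.78 and 1.17 to 1.71. The untreated call made with the block was lost with RLE size factors, with library size scaling, and without replicate 1 or replicate 2 of both groups. With LPS, Mcl1 passed with the length offset and the block together (0.63, edgeR adjusted p = 0.0395) and with DESeq2 and the block. In CD18fl/fl, the call of Mcl1 between LPS and untreated libraries made with the block was lost without replicate 1 or replicate 2 of both groups.

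Bcl2 (ENSMUSG00000057329, chr1:106465908-106642004 on the - strand), the founding pro-survival member, had the lowest mean RPKM of the 10 genes in untreated CD18fl/fl. It measured 4.50, 4.34 and 25.1 CPM in untreated CD18fl/fl, 6.09, 3.44 and 24.2 CPM in untreated CD18CD11c cKO, 1.84, 1.71 and 6.43 CPM in CD18fl/fl with LPS and 1.69, 2.85 and 12.3 CPM in CD18CD11c cKO with LPS, the lowest of these from 42 reads. Intron reads made up 39.1% of the 46 Bcl2 reads of CD18fl/fl LPS replicate 2. They made up 35.7% of the 42 reads of CD18CD11c cKO LPS replicate 1. Wilson 95% intervals of the Bcl2 intron shares reached up to 13.9 percentage points to either side. In CPM, replicate 3 lay 3.62-fold to 5.68-fold above the mean of the other 2 libraries in every group. Summed lymphocyte markers, cells in which Bcl2 is known to be abundant, ranged from 10.2 to 121 and from 3.27 to 152 CPM in untreated CD18fl/fl and CD18CD11c cKO and from 5.49 to 24.5 and 3.27 to 44.4 CPM with LPS. With the block, the lymphocyte genes Cd3g, Cd79a and Ms4a1 were called lower with LPS in both genotypes, and their part in the Bcl2 values was not tested. Same-numbered ratios with LPS were 0.256 to 0.409 in CD18fl/fl and 0.277 to 0.828 in CD18CD11c cKO. The LPS log2 fold change was -1.74 ± 0.87 in CD18fl/fl (edgeR adjusted p = 0.272) and -1.54 ± 0.30 with the block (edgeR adjusted p = 0.0268), and in CD18CD11c cKO -1.06 ± 0.35 with the block (edgeR adjusted p = 0.0744, and 0.605 without). The call made with the block in CD18fl/fl was lost without replicate 1 or replicate 2 of both groups. The genotypes did not differ beyond the spread, with log2 fold changes of 0.08 ± 0.93 without LPS (edgeR adjusted p = 0.976) and 0.75 ± 0.88 with LPS (edgeR adjusted p = 0.836).

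Bcl2l1 (ENSMUSG00000007659, chr2:152622588-152673648 on the - strand), which encodes BCL-XL, showed no call in any comparison with or without the block. It measured 39.8, 37.7 and 76.4 CPM in untreated CD18fl/fl, 27.2, 45.3 and 63.4 CPM in untreated CD18CD11c cKO, 33.1, 34.0 and 95.4 CPM in CD18fl/fl with LPS and 29.8, 32.8 and 131 CPM in CD18CD11c cKO with LPS. All 4 groups overlapped, and replicate 3 was again the highest library of each, by 1.75-fold to 4.17-fold over the mean of replicates 1 and 2. The log2 fold changes lay between -0.10 ± 0.39 (untreated genotypes, edgeR adjusted p = 0.923) and 0.49 ± 0.64 (LPS in CD18CD11c cKO, edgeR adjusted p = 0.716).

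Cflar (ENSMUSG00000026031, chr1:58750667-58798043 on the + strand), which encodes the caspase-8 regulator c-FLIP, had even untreated values and the largest LPS fold change of the 10. It measured 33.5, 36.6 and 31.4 CPM in untreated CD18fl/fl and 30.9, 35.1 and 29.7 CPM in untreated CD18CD11c cKO, and with LPS 130.1, 144 and 216 CPM in CD18fl/fl and 105, 132 and 196 CPM in CD18CD11c cKO. All 6 LPS libraries lay above all 6 untreated ones. LPS raised Cflar by a log2 fold change of 2.28 ± 0.28 in CD18fl/fl (edgeR adjusted p = 0.0162, and 0.00785 with the block) and 2.15 ± 0.32 in CD18CD11c cKO (edgeR adjusted p = 0.0217, and 0.00322 with the block). Same-numbered ratios were 3.89 to 6.88 and 3.40 to 6.59. Between the genotypes the log2 fold changes were -0.02 ± 0.19 without LPS (edgeR adjusted p = 0.975) and -0.19 ± 0.34 with LPS (edgeR adjusted p = 0.903). The CD18CD11c cKO library was slightly below its same-numbered partner in 3 of 3 untreated pairs (ratios 0.924 to 0.961). In RPKM, which carries no TMM factor, the untreated genotypes did not overlap (4.28 to 5.36 in CD18fl/fl, 3.00 to 3.51 in CD18CD11c cKO). Intron reads made up 7.57% to 21.0% of the Cflar reads (Wilson 95% intervals up to 2.57 percentage points to either side), and they numbered 88 to 211 per untreated library and 517 to 948 per LPS library, so the higher LPS values were seen in introns as well.

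Bcl2l11 (ENSMUSG00000027381, chr2:127967958-128004467 on the + strand) encodes BIM, the BH3-only protein most closely tied to the turnover of hematopoietic cells. It measured 40.5, 48.5 and 13.98 CPM in untreated CD18fl/fl and 24.4, 28.6 and 8.57 CPM in untreated CD18CD11c cKO, and 62.6, 46.7 and 11.0 against 42.0, 57.7 and 9.18 CPM with LPS. Replicate 3 was the lowest library of each group, at 0.184 to 0.323 of the mean of replicates 1 and 2, and the groups overlapped in every comparison. Within same-numbered untreated libraries, however, CD18CD11c cKO was lower in 3 of 3 pairs by nearly the same ratio (0.591 to 0.613). The log2 fold change was -0.68 ± 0.59 (edgeR adjusted p = 0.597) and -0.67 ± 0.15 with the block (edgeR adjusted p = 0.0201). With the length offset and the block it was -0.37 (edgeR adjusted p = 0.131), and without replicate 1 or replicate 2 of both groups the call was lost as well. With LPS the pairs disagreed (ratios 0.672 to 1.24) and the log2 fold change was -0.16 ± 0.77 (edgeR adjusted p = 0.962, and 0.585 with the block). LPS gave 0.22 ± 0.68 in CD18fl/fl (edgeR adjusted p = 0.873) and 0.75 ± 0.67 in CD18CD11c cKO (edgeR adjusted p = 0.581, and 0.104 with the block), where all 3 pairs were higher with LPS (ratios 1.07 to 2.01).

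Bbc3 (ENSMUSG00000002083, chr7:16042318-16052130 on the + strand) encodes PUMA, the p53-responsive BH3-only protein, and was low. Its values were 14.6, 13.0 and 11.5 CPM in untreated CD18fl/fl, 9.46, 11.95 and 8.17 CPM in untreated CD18CD11c cKO, 12.7, 8.57 and 11.5 CPM in CD18fl/fl with LPS and 11.3, 10.2 and 12.3 CPM in CD18CD11c cKO with LPS. All groups overlapped. The log2 fold changes ran from -0.34 ± 0.25 between the untreated genotypes (edgeR adjusted p = 0.53, and 0.255 with the block) to 0.15 with LPS in CD18CD11c cKO (edgeR adjusted p = 0.819), and the untreated genotype difference was called only with library size scaling and the block together.

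The pore former Bax (ENSMUSG00000003873, chr7:45111121-45116322 on the - strand) measured 129, 112 and 155 CPM in untreated CD18fl/fl and 185, 178 and 168 CPM in untreated CD18CD11c cKO, which do not overlap, and 112, 148 and 100.0 against 182, 191 and 135 CPM with LPS, which do. In RPKM, which carries no TMM factor, the untreated genotypes overlapped (104 to 143 in CD18fl/fl, 125 to 133 in CD18CD11c cKO). RPKM of Bax was lower with LPS without overlap in both genotypes (79.4 to 96.3 and 93.7 to 108). The genotype log2 fold change of Bax was 0.49 ± 0.19 without LPS (edgeR adjusted p = 0.262, and 0.0513 with the block) and 0.48 ± 0.26 with LPS (edgeR adjusted p = 0.608, and 0.0779 with the block), higher in 3 of 3 pairs in both states (ratios 1.08 to 1.58 and 1.29 to 1.63). With the block, Bax was called between the untreated genotypes from unique reads, by DESeq2 and without replicate 3 of both groups, and with LPS by DESeq2, and with the length offset alone the untreated value was 0.07. Bak1 (ENSMUSG00000057789, chr17:27238784-27247983 on the - strand), the other pore former, measured 88.3, 89.4 and 66.9 CPM in untreated CD18fl/fl, 72.9, 60.4 and 70.3 CPM in untreated CD18CD11c cKO, 104, 88.1 and 72.6 CPM in CD18fl/fl with LPS and 66.6, 71.0 and 70.1 CPM in CD18CD11c cKO with LPS. In CPM, only with LPS did the genotypes not overlap, with a log2 fold change of -0.36 ± 0.22 (edgeR adjusted p = 0.664, and 0.231 with the block). In RPKM, Bak1 did not overlap between the genotypes in either state (CD18fl/fl 34.3 to 46.3 against 23.6 to 30.9 without LPS, 31.9 to 40.9 against 21.8 to 26.9 with LPS). Bak1 was called lower in CD18CD11c cKO in both states with library size scaling and the block together. LPS moved neither gene past the threshold: the log2 fold changes of Bax were -0.13 ± 0.26 and -0.11 (edgeR adjusted p = 0.795 and 0.83) and those of Bak1 0.11 ± 0.25 and -0.01 (edgeR adjusted p = 0.819 and 0.983) in CD18fl/fl and CD18CD11c cKO.

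Over the 10 genes, groups did not overlap in CPM for 3 genes higher between the untreated genotypes (Bcl2a1b, Bcl2a1d and Bax, against 11.5% of all genes higher and 13.5% lower), for 2 higher and 1 lower between the genotypes with LPS (9.25% and 8.62%), for 3 higher with LPS in CD18fl/fl (13.6% and 15.9%) and for 4 higher with LPS in CD18CD11c cKO BMDCs (14.7% and 13.4%). In RPKM, the overlap of Bax, Bak1, Bbc3 and Cflar differed from this in at least 1 comparison. The LPS response did not differ between the genotypes by test. The interaction term on all 12 libraries called 0 of the 10 genes by edgeR with or without the block and 0 by DESeq2, with 0 of the 10 at an unadjusted p under 0.05 (0.705% of all genes). It was -0.29 ± 0.44 for Bcl2a1b, -0.34 ± 0.48 for Bcl2a1d and -0.31 for the sum of the 3 copies on the log2 scale. For Bcl2a1b and Bcl2a1d, the LPS fold change was thus smaller in CD18CD11c cKO in value but not beyond the error, and the 2 comparisons between genotypes and the 2 comparisons with LPS share their groups.

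Other genes of the apoptosis pathways, from lists held apart from the 10 genes, gave few calls without the block and more with it. All counts with the block stand against the shares of all genes called higher and lower, which were 12.1% and 8.16% between the untreated genotypes, 6.98% and 3.16% between the genotypes with LPS, 6.33% and 6.43% with LPS in CD18fl/fl and 10.2% and 9.93% with LPS in CD18CD11c cKO. Of 14 tested relatives in the BCL2 family (of 17 listed, with Bcl2a1a and Bcl2a1c among them), 0 were called in any comparison without the block, and with it 3 were higher in CD18CD11c cKO without LPS and 3 with LPS, 2 higher with LPS in CD18fl/fl, and 3 higher and 1 lower with LPS in CD18CD11c cKO. Besides the A1 copies these were the BH3-only genes Bad, higher in CD18CD11c cKO by 0.87 ± 0.17 without LPS (edgeR adjusted p = 0.0131 with the block) and 0.95 ± 0.15 with LPS (edgeR adjusted p = 0.0127 with the block), and Pmaip1 (NOXA, which antagonizes MCL1), higher by 0.68 ± 0.15 without LPS (edgeR adjusted p = 0.0199 with the block). With LPS, Bcl2l14 rose by 3.79 ± 0.58 in CD18fl/fl and 3.40 ± 0.20 in CD18CD11c cKO (edgeR adjusted p = 0.0146 and 0.000653 with the block), Bnip3 rose by 1.68 ± 0.28 in CD18CD11c cKO (edgeR adjusted p = 0.00889 with the block) and Bid fell by 0.97 in CD18CD11c cKO (edgeR adjusted p = 0.0373 with the block).

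Downstream of the mitochondria, 15 genes of the caspases and the apoptosome were tested. Without the block only Septin4 was called, lower with LPS in CD18fl/fl (-1.56 ± 0.29, edgeR adjusted p = 0.0374). In CD18CD11c cKO, Septin4 differed by -1.20 ± 0.37 (edgeR adjusted p = 0.117) and passed with the block (-1.27 ± 0.33, edgeR adjusted p = 0.0371). With the block, Cycs, which encodes cytochrome c, was higher in CD18CD11c cKO in both states (0.96 ± 0.16 and 0.68 ± 0.15, edgeR adjusted p = 0.00787 and 0.0311), as was Casp6 without LPS (0.53 ± 0.15, edgeR adjusted p = 0.0439), while Casp9 was lower without LPS (-0.68 ± 0.19, edgeR adjusted p = 0.0423). The block called 2 higher and 1 lower between the untreated genotypes and 1 and 1 between the genotypes with LPS. With LPS, 1 gene was higher and 2 lower in CD18fl/fl and 0 higher and 2 lower in CD18CD11c cKO with the block. Of 9 tested inhibitor-of-apoptosis genes, 1 was higher and 3 lower in untreated CD18CD11c cKO with the block, and 1 and 1 with LPS. The higher one in both states was Birc5 (2.23 ± 0.58 and 2.01 ± 0.50, edgeR adjusted p = 0.0335 and 0.0469 with the block), which is known as a gene of dividing cells, and it fell with LPS in CD18CD11c cKO by 2.94 without the block (edgeR adjusted p = 0.0415). In CD18fl/fl, Birc5 differed by -3.05 ± 0.79 with LPS (edgeR adjusted p = 0.0829) and passed with the block (-2.62 ± 0.62, edgeR adjusted p = 0.0449). The lower ones without LPS were Birc6, Naip2 and Naip6 (-0.73, -0.56 and -0.87 with the block), and Naip2 was lower with LPS too (-0.99, edgeR adjusted p = 0.0133 with the block). With LPS, 2 were higher and 1 lower in CD18fl/fl and 1 and 1 in CD18CD11c cKO with the block.

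The death receptor list, to which Cflar is closest in function, had 18 or 19 tested genes. Between the genotypes 0 were called without the block, and with it 2 were higher and 6 lower without LPS and 0 higher and 3 lower with LPS. The TNF receptor gene Tnfrsf1a was lower in CD18CD11c cKO in both states (-0.82 ± 0.14 and -0.97 ± 0.16, edgeR adjusted p = 0.00872 and 0.0139 with the block), and Tnfrsf21 and Ripk1 were lower without LPS (-1.45 ± 0.26 and -0.73 ± 0.14, edgeR adjusted p = 0.0102 and 0.0148 with the block). With LPS, the necroptosis effector Mlkl (2.71 ± 0.34, edgeR adjusted p = 0.0162) and the ligand gene Tnfsf10 (2.96 ± 0.62, edgeR adjusted p = 0.0493) rose in CD18fl/fl without the block, and Tnfsf10 rose in CD18CD11c cKO (2.69 ± 0.54, edgeR adjusted p = 0.045). Mlkl in CD18CD11c cKO differed by 2.21 ± 0.53 (edgeR adjusted p = 0.0654) and passed with the block (2.44 ± 0.32, edgeR adjusted p = 0.00415). With the block, 6 rose and 1 fell in CD18fl/fl and 8 rose and 2 fell in CD18CD11c cKO, with Traf2 and Fas among those higher in both.

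Bbc3 is a p53 target as well, and among 19 further p53 target genes Sesn1 was the 1 call without the block, lower with LPS in CD18fl/fl (-1.58 ± 0.29, edgeR adjusted p = 0.0386). In CD18CD11c cKO, Sesn1 differed by -1.45 ± 0.34 (edgeR adjusted p = 0.0633) and passed with the block (-1.42 ± 0.32, edgeR adjusted p = 0.0246). With the block, 1 was higher and 3 lower in CD18CD11c cKO in each state, with Gdf15 lower in both (-1.65 ± 0.19 and -1.55 ± 0.17, edgeR adjusted p = 0.00318 and 0.00641), and with LPS 3 rose and 1 fell in CD18fl/fl and 5 rose and 1 fell in CD18CD11c cKO. Of 9 genes listed as regulators of MCL1, 0 were called without the block. With it, the deubiquitinase gene Usp9x was lower in untreated CD18CD11c cKO (-0.54 ± 0.15, edgeR adjusted p = 0.0394), the ubiquitin ligase gene Marchf5 rose with LPS in both genotypes (1.45 ± 0.21 and 1.29 ± 0.18, edgeR adjusted p = 0.0126 and 0.00513), and Cdk9 fell with LPS in CD18CD11c cKO (-0.74 ± 0.18, edgeR adjusted p = 0.0324).

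The marker lists had 0 calls between the genotypes without the block. With it, between the untreated genotypes, 4 of 15 dendritic cell markers were higher and 2 lower, 2 of 13 LPS response markers higher and 2 lower, 0 of 11 neutrophil markers higher and 3 lower, 3 of 11 macrophage markers higher and 3 lower, 1 of 6 mast cell and basophil markers higher and 0 lower, and 0 of 11 lymphocyte markers called. Between the genotypes with LPS the counts higher and lower were 2 and 0 for dendritic cell, 1 and 1 for LPS response, 0 and 1 for neutrophil, 0 and 2 for macrophage, 0 and 0 for mast cell and basophil and 1 and 0 for lymphocyte markers. LPS response genes rose with LPS, 5 of 15 in CD18fl/fl and 6 of 15 in CD18CD11c cKO without the block and 12 of 15 in each with it. Macrophage markers fell with LPS, 3 of 11 and 4 of 11 without the block and 6 of 11 in each with it. With the block, LPS gave 3 higher and 1 lower dendritic cell markers in CD18fl/fl and 3 and 3 in CD18CD11c cKO, 0 and 2 against 1 and 2 for neutrophil, 1 and 1 against 1 and 0 for mast cell and basophil and 0 and 3 in both for lymphocyte markers. The part of these cells in the values of the 10 genes was not tested.

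Reads from introns and from overlapping genes were few for most of the 10. The intron share was largest for Bcl2, at up to 39.1% in a library with LPS, and reached 21.0% for Cflar and 16.5% for Bbc3. Intron reads were at most 0.733% of the reads of Bcl2a1b and 2.23% of those of Mcl1. The library kit does not mark the strand, so reads of a gene and of an overlapping antisense gene cannot be told apart. Overlapping annotated genes held at most 0.796% of the number of reads of Bcl2a1b (Gm29094, same strand), 0.814% of those of Bcl2a1d (Gm10634, opposite strand), 0.791% of those of Bax (Gm45808, same strand) and 2.47% of those of Bak1 (Gm50253, opposite strand).

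The promoters of the A1 copies were compared because these genes moved together. All 10 genes were matched to RefSeq promoter windows (GRCm38.p6, 250 bases before to 50 after the annotated start), 15 windows in all because some genes have several starts. The purine box GAGGAAGT, the type of sequence bound by ETS factors such as PU.1, was searched in the 250 upstream bases on both strands and occurs in 2.44% of 32851 windows. It was found in Bcl2a1a, Bcl2a1b, Bcl2a1c and Bcl2a1d and, on the opposite strand, in Bak1. A stretch of 80 bases around it is shown for the 3 near-identical copies, with the box in capitals (GRCm38.p6, chr9:88956780-88956859 on the + strand for Bcl2a1a, chr9:89199089-89199168 on the + strand for Bcl2a1b and chr9:88731911-88731990 on the - strand for Bcl2a1d).
Bcl2a1a: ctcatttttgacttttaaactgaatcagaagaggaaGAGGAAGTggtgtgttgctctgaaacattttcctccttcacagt
Bcl2a1b: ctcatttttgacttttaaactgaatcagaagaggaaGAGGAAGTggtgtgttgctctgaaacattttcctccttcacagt
Bcl2a1d: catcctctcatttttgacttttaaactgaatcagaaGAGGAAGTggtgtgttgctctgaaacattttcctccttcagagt
The stretches of Bcl2a1a and Bcl2a1b are identical. From the box onward Bcl2a1d differs from Bcl2a1b at 1 of 44 bases, and before the box it has 6 bases fewer of the purine repeat. The likeness of the promoters follows that of the genes and is a description only. The NF-κB consensus, present in 7.25% of all windows, was found in windows of Bcl2l1 and Bbc3, and the forkhead core GTAAACA, present in 3.17%, in windows of Bcl2l11 and Bbc3, with both strands searched and no overlap between the motifs considered.

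Genes with the profile closest to the sum of the A1 copies were sought over the 12 libraries among 13752 genes by the root mean square distance of mean-centred log2 CPM. The 5 nearest were Zfp867 (0.33), Pkib (0.34), Adprm (0.40), Gt(ROSA)26Sor (0.41) and Tank (0.43, a TRAF-binding protein). Those nearest to Bcl2l11 were Map4k4 (0.32), Chst15 (0.33), Cdkn1c (0.36), Smox (0.37) and Clasp2 (0.37). A distance of this kind also follows the shared replicate 3 deviation.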

How the data were processed

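Poly(A) RNA of MHCII+ BMDCs was sequenced as single reads of 59 bases without molecular identifiers, with 3 libraries in each of 4 groups. According to the study's methods, the authors mapped reads to GRCm39 in CLC Genomics Workbench with default settings, whereas the submitters' processing notes name GRCm38. The gene regions in the files match GRCm39. The authors deposited raw counts per gene as total gene reads and unique gene reads, with exon, intron and junction reads, and RPKM values, which they scaled for exon length and mapped reads. No normalization was applied to the counts. No column of other samples was present (0).

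Total gene reads, as in the study's methods, entered the quasi-likelihood F test of edgeR 4.0.16 (R 4.3.3) after filtering (minimum count 10) and TMM scaling. All genes passing the filter entered the fit and the Benjamini-Hochberg adjustment (threshold 0.05). Genotypes were compared within a state and LPS within a genotype, with 6 libraries each, and the interaction on 12. CPM were scaled with TMM factors over all 12 libraries. The standard error was the log2 fold change divided by the square root of F. Shares were compared by an exact permutation test (two-sided, smallest p 0.1). The steps were tested on simulated data with known changes. Sequences were taken from the reference and from RefSeq.

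The pairing used for the replicate block comes from the numbers in the labels. Deviations of same-numbered libraries from their group means correlated with r of 0.388 to 0.716 (untreated genotypes), 0.366 to 0.693 (genotypes with LPS), 0.265 to 0.524 (LPS in CD18fl/fl) and 0.313 to 0.566 (LPS in CD18CD11c cKO), and those of other pairs reached at most 0.334. The highest r of each comparison was that of replicate 3 (0.524 to 0.716). Same-numbered pairs of replicates 1 and 2 had r of 0.265 to 0.451, close to pairs of 1 with 2 (0.154 to 0.334). Whether these numbers mark true pairs was not tested. No library was a copy of another (66 pairs, lowest chi-square per degree of freedom 46.9).

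The members and lists were chosen with earlier results of these data known. Named were all 10 members, Itgb2, Bcl2a1a and Bcl2a1c, up to 4 genes per other apoptosis list and comparison with the smallest p among those called without or with the block, and the 5 nearest profiles. The marker lists are given as counts of calls, except for 3 lymphocyte genes. A gene that this rule named is not reported here. Alternatives were RLE size factors, library size scaling, no filter beyond 1 read, unique gene reads, DESeq2 1.42.0, the replicate block, a length offset (lowess, span 0.3) alone and with the block, replicates 1 and 2 only, all 12 libraries, and each library left out. Combinations of unique reads, RLE, library size scaling, DESeq2 or a left-out replicate number with the block, and the test of shares over same-numbered pairs, were chosen once the values were known.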

Additional observations from a re-analysis of the deposited data

How the results depend on the processing

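Of the 10 genes, 0 were called between the untreated genotypes without a block (0% of all genes). DESeq2 called 2 (6.73% of all genes), the replicate block 4 (20.2%), the length offset with replicate block 3 (11.2%) and replicates 1 and 2 only 2 (10.6%). With the block and unique gene reads, RLE size factors, library size scaling or DESeq2 the counts were 5, 3, 5 and 5 (20.7%, 20.7%, 35.6% and 25.7%), and without replicate 1, 2 or 3 of both groups 2, 2 and 5 (7.71%, 3.48% and 26.7%). Between the genotypes with LPS, where 0 were called (0%), DESeq2 gave 2 (2.52%), the block 2 (10.1%), the length offset with block 3 (8.40%), replicates 1 and 2 only 2 (4.22%), the same 4 combinations with the block 2, 2, 3 and 4 (11.2%, 9.85%, 21.2% and 16.0%), and the block without a replicate number 0 (replicate 1, 0.0234%) or 2 (1.77% and 11.3%). With LPS in CD18fl/fl, where 3 were called (3.89%), unique gene reads gave 2 (3.99%), library size scaling 1 (3.51%), the block 5 (12.8%), the length offset with block 5 (13.6%), replicates 1 and 2 only 5 (47.5%), and each of the 4 combinations 5 (12.7% to 25.7%). Leaving out 1 library gave 0 to 4 (0% to 24.7%), and leaving out a replicate number with the block 2 to 5 (4.27% to 49.3%). With LPS in CD18CD11c cKO, where 2 were called (3.99%), library size scaling gave 1 (3.83%), the length offset 1 (3.87%), DESeq2 4 (13.2%), the block 4 (20.2%), the 4 combinations 4, 4, 4 and 5 (20.3% to 27.9%), leaving out 1 library 0 to 2 (0% to 7.80%) and leaving out a replicate number with the block 4 to 5 (6.46% to 31.5%). The interaction stayed at 0 members in every fit. The cause of these changes was not tested beyond the fewer libraries that some fits hold. For the sum of the A1 copies the block gave 1.67, 1.27 and 1.41 (untreated genotypes, genotypes with LPS, LPS in CD18CD11c cKO), all then called, and leaving out 1 library gave 1.503 to 2.04 with LPS in CD18fl/fl.

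Signs changed only among values that were not called. Library size scaling, which moved the median of all genes from -0.05 to -0.44, from -0.11 to -0.37, from -0.02 to -0.32 and from -0.01 to -0.23 in the 4 comparisons, gave -0.27 for Bcl2 (untreated genotypes), -0.0048 for Bcl2l1 and -0.23 for Bbc3 (genotypes with LPS), -0.15, -0.16 and -0.21 for Bcl2l1, Bcl2l11 and Bak1 (LPS in CD18fl/fl) and -0.042 for Bbc3 (LPS in CD18CD11c cKO). The length offset gave 0.087 for Bcl2l1 and 0.28 for Cflar (untreated genotypes), -0.048 for Bbc3 (genotypes with LPS) and 0.045 for Bak1 (LPS in CD18CD11c cKO), and with the block 0.080, 0.28, -0.030 and 0.042. Replicates 1 and 2 only gave -0.12 for Bcl2l1 and -0.0058 for Bbc3 (genotypes with LPS), -0.22 for Bcl2l1 and 0.10 for Bax (LPS in CD18fl/fl) and -0.32 for Bcl2l1 and -0.10 for Bbc3 (LPS in CD18CD11c cKO). The block gave -0.027 for Bcl2l1 (LPS in CD18fl/fl), and the fit on 12 libraries 0.033 for Bak1 (LPS in CD18CD11c cKO). Leaving out 1 library, the untreated genotype value ran from -1.15 to 1.39 for Bcl2, -0.11 to 0.048 for Cflar and -0.41 to 0.27 for Bcl2l1. With LPS it ran from -0.67 to 0.29 for Bcl2l11, -0.10 to 0.18 for Bbc3, -0.49 to 0.057 for Cflar, -0.60 to 1.66 for Bcl2 and -0.83 to 0.94 for Bcl2l1. The LPS value in CD18fl/fl ran from -0.60 to 0.48 for Bcl2l1, -0.25 to 0.66 for Bcl2l11 and -0.018 to 0.23 for Bak1, and in CD18CD11c cKO from -0.081 to 0.032 for Bak1, -2.39 to 0.25 for Bcl2 and -0.62 to 0.85 for Bcl2l1. Of 704 values of members under alternatives, 571 kept their sign and their side of the threshold. Bcl2, with as few as 42 reads in a library, is the member most limited by depth.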
